A study of Homo sapiens with 115 samples.

Results

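CLU, ANXA1, ANXA3, ANXA10, S100A6 and F3 are 6 genes known from regenerating and fetal-like intestinal epithelium, and their RNA was followed through an irradiation and regrowth course in single cells of HCT116, a human colorectal cancer cell line. The members were taken by name from the 43386 entries of the gene count table. No measured value served as a rule for the choice, but it was made with earlier results of these data known. The cells came from 5 stages. Unirradiated cells [N] carry day 0 in their labels, pre-budding radiation-tolerant persister (RTP) cells [P] day 7, budding RTP cells [B] day 10, newly budded progeny cells [S] day 10 and repopulated cells [R] day 30. RTP cells are the enlarged cells that outlive the dose, and [S] cells are the small cells they give off. Every label names a dose of 8 Gy, also for [N], which the methods describe as untreated and which were taken here as unirradiated. Of the cells, 43 belonged to the p53-/- line (7 [N], 11 [P], 8 [B], 9 [S] and 8 [R]) and 72 to the p53+/+ line (6 [N], 6 [P], 28 [B], 21 [S] and 11 [R]). These numbers follow the labels and differ slightly from those of the study's text. Each line is a single homologous recombinant derivative of HCT116, so genotype and line cannot be told apart. The cells were picked under a microscope, and nothing in the labels ties them to separate cultures.

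When intestinal crypts are injured, the homeostatic stem cells at the crypt base are lost, and surviving epithelial cells switch for a time to a programme that resembles the fetal gut, driven in mouse largely by the YAP and TEAD transcription factors. CLU encodes clusterin, a secreted chaperone that marks the revival stem cells of the injured mouse intestine. ANXA1, ANXA3 and ANXA10 encode annexins, which bind membrane phospholipids when calcium is present, S100A6 encodes calcyclin, a small calcium sensor, and F3 encodes tissue factor, the membrane receptor that starts blood coagulation and a YAP/TEAD target gene. The study had placed irradiated cells nearer to a regenerative than to a crypt-base state, and the question here was how the level of each marker differed between the stages and between the lines.

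Total counts per cell ran between 4056329 and 100173192 with a median of 34238237, and a cell had counts for between 5911 and 19258 entries (median 14417). There were no molecular identifiers, so intervals and detection limits cover counting error only. Levels are given in CPM, the counts of a gene scaled to the total of its cell. EPCAM, KRT8, KRT18 and KRT19, which mark epithelium, had counts in every cell. Of the intestinal genes, CDX2 had a median of 15.2 CPM and counts in most cells, and CDX1 and VIL1 had counts in 0 and 1 cells. Of 11 markers of blood, stromal and endothelial cells, CD68 and COL1A1 had counts in most cells (93 for COL1A1) LYZ, VWF, PECAM1, COL3A1 and PDGFRB in 24, 22, 20, 11 and 7, and PTPRC, CD3E, COL1A2 and CDH5 in at most 2. The names of cells start with digits shared by several cells, 19 such name prefixes in all, and the labels do not say what they mark. The [R] cells of each line came from 1 prefix that no other stage shares, and the 6 p53+/+ [P] cells came from prefix 1115, which holds 1 of the 6 p53+/+ [N] cells. Stage and prefix can therefore not be told apart for [R]. No [B] or [S] cell carries a prefix of an [N] cell, so the same holds for [B] and [S] against [N]. One p53+/+ [S] cell bears in its name the letter that [B] cells bear.

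None of the 6 markers passed the test in any of the 7 comparisons of stages made or between the lines. Counts were summed over the cells of a stage and line, which gave 10 sums, and were tested with edgeR's quasi-likelihood test (2-sided, n = 2 sums per stage, 19894 genes tested, adjusted over all of them by the Benjamini-Hochberg procedure). A gene was called at an adjusted p under 0.05. At that threshold edgeR called 0 of 6 markers in [P] against [N], with 0.0201% of all tested genes called, 0 of 6 in [B] against [N] (0.658%), 0 of 6 in [S] against [N] (0.0704%) and 0 of 6 in [R] against [N] (0%). It also called 0 of 6 in [B] against [P] (0%), in [S] against [B] (0%), in [R] against [S] (0.0201%) and in p53-/- against p53+/+ (0.206%). At an unadjusted p under 0.05, edgeR had 1 marker in [P] against [N], 2 in [B] against [N], 2 in [S] against [N], 1 in [R] against [N], 1 in [R] against [S] and 0 in the other 3 comparisons, while 834 to 3687 of the 19894 genes had one in these 8 comparisons. DESeq2 on the same sums called S100A6 and ANXA1 in [B] against [N] and ANXA1 in [S] against [N], among 2153 and 960 genes over the whole table, and 0 markers in the other stage comparisons and between the lines. The 2 sums of a stage are the 2 lines, so differences between the lines are part of the spread in the stage tests. With the line as a block, edgeR called S100A6 in [B] against [N], among 677 genes over the whole table, and no other marker. The 4 comparisons with [N] share the [N] sums.

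The markers went different ways. In [B] against [N] the fold change was positive for 1 marker, S100A6, and negative for 5, with a median log2 fold change of -0.84 over the 6 against 0.20 over all genes tested. In [R] against [N], 3 were positive and 3 negative, with a median of 0.02 against 0.02.

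**Figure D1:**
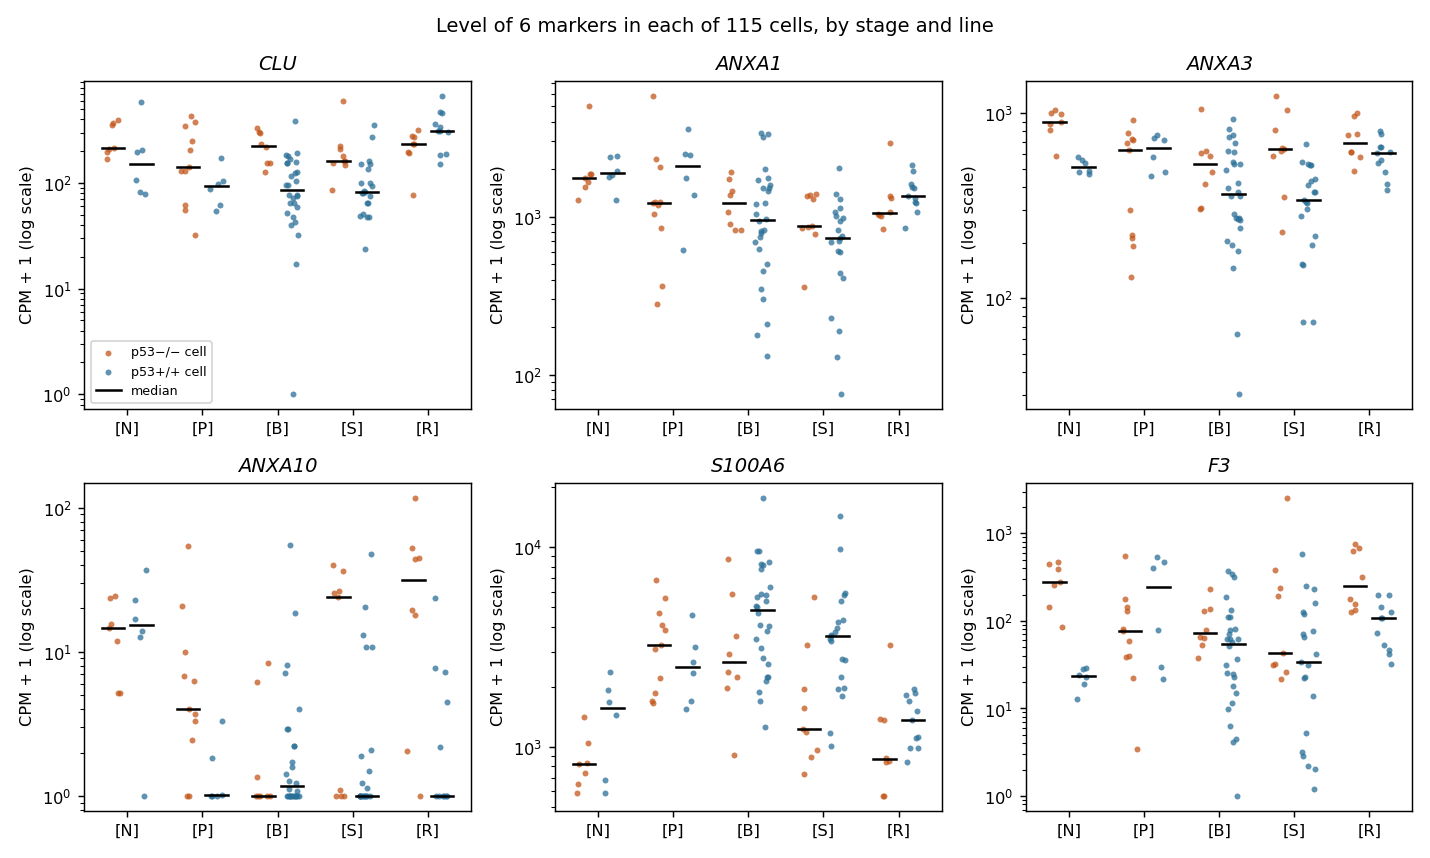
CPM + 1 of each marker in every cell on a log axis, by stage and line, 1 point per cell with the group's median as a bar. S100A6 medians stand highest in [P] cells of the p53-/- line and in [B] cells of the p53+/+ line, and most groups overlap within every panel.

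S100A6 medians were above [N] in [P], [B] and [S] in both lines and close to [N] in [R]. As ratios of medians to [N], p53-/- cells had 3.97 for [P], 3.25 for [B], 1.502 for [S] and 1.06 for [R], and p53+/+ cells had 1.60 for [P], 3.10 for [B], 2.31 for [S] and 0.874 for [R]. The protein is a small calcium-binding member of the S100 family, found in dividing and stressed epithelial cells. Its gene lies on chromosome 1 at 153534599 to 153535991 (minus strand, GRCh38.p14, RefSeq). In p53-/- cells it ran from 583 to 1404 CPM in [N] (median 815), from 1660.4 to 6840.4 in [P] (median 3235), from 911 to 8693 in [B] (median 2649.9), from 729.9 to 5628 in [S] (median 1223) and from 566 to 3254 in [R] (median 865). In p53+/+ cells it ran from 583 to 2365 CPM in [N] (median 1559), from 1542 to 4573 in [P] (median 2500.1), from 1262 to 17753 in [B] (median 4838), from 1004 to 14318 in [S] (median 3606) and from 835 to 1945 in [R] (median 1362). All 11 p53-/- [P] cells stood above all 7 p53-/- [N] cells, a separation that 0.207% of the 6778 genes at a mean of at least 20 CPM had. In [B], 7 of 8 p53-/- cells and 22 of 28 p53+/+ cells were above the highest [N] cell of their line. In [S] these numbers were 4 of 9 p53-/- cells and 15 of 21 p53+/+ cells. In [R] the cells overlapped [N] in both lines, with 1 of 8 p53-/- cells and 0 of 11 p53+/+ cells above the highest [N] cell.

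The log2 fold change of S100A6 in [B] against [N] was 1.94 (standard error, SE, 0.53, adjusted p = 0.106 from edgeR), a 2-sided test on 2 sums against 2. With the line as a block, which the shared line numbers allow, it was 1.92 and passed (adjusted p = 0.0474 from edgeR), as it did with DESeq2 at 1.93 (adjusted p = 0.00453). It was 1.36 in [P] against [N] (SE 0.52, adjusted p = 0.369), 1.51 in [S] against [N] (SE 0.52, adjusted p = 0.293) and 0.16 in [R] against [N] (SE 0.51, adjusted p = 0.962), all from edgeR. Between [R] and [S] it was -1.35 (SE 0.52, adjusted p = 0.266 from edgeR). Between the lines S100A6 was at -0.60, lower in p53-/- (SE 0.27, adjusted p = 0.370 from edgeR), and with sums per name prefix it was at -1.01 and passed (adjusted p = 0.0370). Leaving out 1 sum at a time moved the [B] against [N] value between 1.43 and 2.41, and in [R] against [N] the sign turned in 2 of 10 such fits.

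The difference between [P] and [N] was also present among cells that share a name prefix. Within prefix 1115 the summed counts gave 3390.5 CPM in 3 p53-/- [P] cells against 785 CPM in 2 p53-/- [N] cells, a log2 ratio of 2.11 after 1 CPM was added to each value, as in all ratios within a prefix. In the p53+/+ line the same prefix gave 2425 CPM in 6 [P] cells against 583 CPM in 1 [N] cell, a log2 ratio of 2.06. Within the prefix every [P] cell stood above every [N] cell of its line, whereas over all prefixes 3 of 6 p53+/+ [P] cells were above the highest p53+/+ [N] cell. Budded progenies lay below the budding cells of their own prefix in 3 of 4 prefixes of the p53-/- line and 6 of 7 of the p53+/+ line. Some of these differences were close to 0, with log2 ratios of -0.046 in prefix 1022 of p53-/-, and -0.045 and -0.050 in prefixes 1219 and 802 of p53+/+. The log2 fold change within prefixes was -0.67 (SE 0.31, unadjusted p = 0.0444, adjusted p = 0.749 from edgeR). In that comparison of [S] with [B] within prefixes, edgeR called 0 of 6 markers and 0% of 14685 genes, with 967 genes at an unadjusted p under 0.05.

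S100A6 has a short transcript, and short transcripts as a class were higher in [B]. Among the first of 10 equal classes of genes by transcript length (48 to 1155 bases, the longest annotated transcript of each gene), where S100A6 falls with 673 bases, the class median on the log2 scale was 0.055 for [P] against [N], 0.38 in [B] against [N], 0.37 in [S] against [N], -0.27 in [R] against [N] and -0.60 in [R] against [S]. Over all genes tested, also those for which no transcript length was found, these medians were 0.15, 0.20, 0.15, 0.02 and -0.08. Among the 10 classes, the medians for [P] against [N] ran from -0.045 in class 2 to 0.37 in class 10, the longest. S100A6 was at 1.36 in that comparison. Within its class S100A6 stood above 79.98% of the genes in [P] against [N], 80.9% of the genes in [B] against [N], 77.6% in [S] against [N] and 66.1% in [R] against [N]. The part of transcript length in the S100A6 values was not tested.

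**Figure D2:**
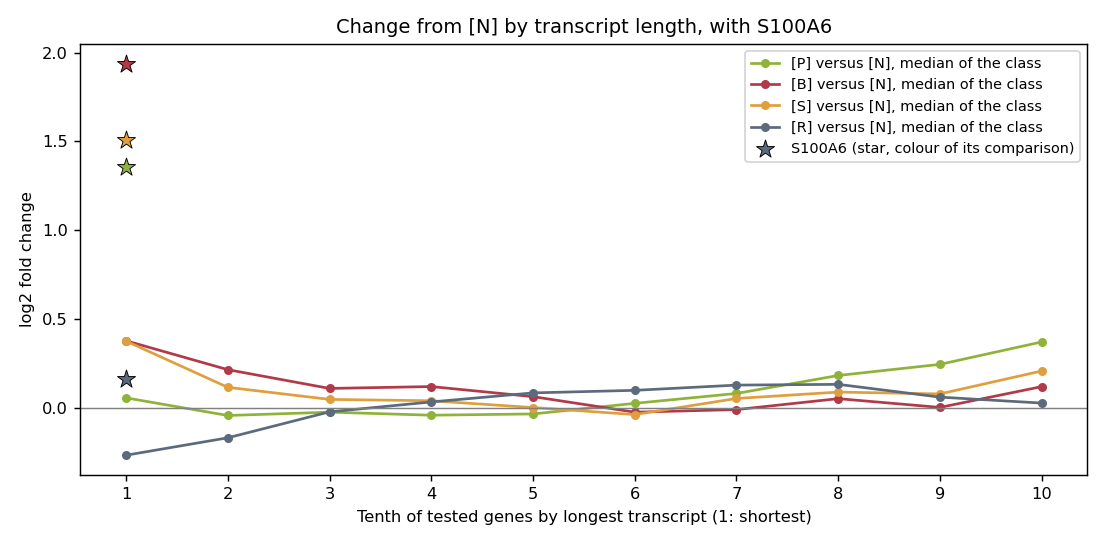
Median log2 fold change against [N] of genes in 10 classes of transcript length, shortest at the left, for 4 stages, with S100A6 as stars. The shortest class lies at 0.38 in [B] and -0.27 in [R], and S100A6 lies at 1.94 and 0.16.

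The 250 bases before the S100A6 and F3 starts are shown because of the 5 windows at hand only these held matches to the motifs searched. The motifs were the AP-1 element TGANTCA, the TEAD element GGAATG and the GC box GGGCGG, each on both strands, and overlapping matches were counted. Matches are in capitals, and the sequences are from RefSeq (GRCh38.p14, 5′ to 3′ on the gene's strand, ending at the base before the start).
S100A6: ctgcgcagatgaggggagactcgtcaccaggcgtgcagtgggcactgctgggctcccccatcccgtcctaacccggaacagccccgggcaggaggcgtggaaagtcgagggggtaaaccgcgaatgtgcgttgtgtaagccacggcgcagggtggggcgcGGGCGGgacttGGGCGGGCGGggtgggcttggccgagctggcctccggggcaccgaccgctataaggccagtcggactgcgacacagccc
F3: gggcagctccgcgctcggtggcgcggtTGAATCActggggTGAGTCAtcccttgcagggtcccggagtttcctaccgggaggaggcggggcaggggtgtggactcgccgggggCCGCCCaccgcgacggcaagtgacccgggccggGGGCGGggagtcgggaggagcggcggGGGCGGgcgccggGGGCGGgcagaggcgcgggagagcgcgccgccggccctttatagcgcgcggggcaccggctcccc
The S100A6 window (chr1:153535992-153536241, minus strand) held 3 GC boxes, 2 of them overlapping, and no AP-1 or TEAD match. The F3 window (chr1:94541760-94542009, minus strand) held 2 AP-1 matches, 223 and 210 bases before the start, 4 GC boxes and no TEAD match. The windows of ANXA1, ANXA3 and ANXA10 held none of the 3 motifs. Of 35116 promoter windows of the same length, 6.57% held the AP-1 letters, 11.9% the TEAD letters and 42.6% the GC box. These are matches of letters, and nothing was measured on the promoters.

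ANXA1 had lower medians in [B], [S] and [R] cells than in [N] in both lines, lowest in the budded progenies. Annexin A1 is an anti-inflammatory protein that also promotes repair of the intestinal mucosa. The gene lies on chromosome 9 at 73151865 to 73170393 (plus strand, GRCh38.p14). In p53-/- cells ANXA1 ran from 1271 to 5019.9 CPM in [N] (median 1752), from 281 to 5810.4 in [P] (median 1227), from 825 to 1905 in [B] (median 1217), from 357 to 1388 in [S] (median 878) and from 839 to 2938 in [R] (median 1058). In p53+/+ cells it ran from 1278 to 2409 CPM in [N] (median 1887), from 619 to 3577 in [P] (median 2097), from 129.8 to 3362 in [B] (median 955), from 74.2 to 2020.4 in [S] (median 729) and from 848 to 2135 in [R] (median 1346). Below the lowest [N] cell of their line lay 5 of 9 p53-/- [S] cells and 18 of 21 p53+/+ [S] cells, and also 8 of 11 p53-/- [P] cells, which reached further down than the [S] cells of that line.

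The log2 fold change of ANXA1 was -0.31 in [P] against [N] (SE 0.27, adjusted p = 0.701), -0.88 in [B] against [N] (SE 0.27, adjusted p = 0.139), -1.22 in [S] against [N] (SE 0.28, adjusted p = 0.200) and -0.85 in [R] against [N] (SE 0.27, adjusted p = 0.563), all from edgeR. DESeq2 called it lower in [B] (adjusted p = 0.0224) and in [S] (adjusted p = 0.00127) and not in [R] (adjusted p = 0.0934). Leaving out 1 sum at a time kept all 4 values negative, between -1.37 and -1.12 for [S] against [N]. In [S] against [B] cells of the same prefix ANXA1 was lower in 3 of 4 p53-/- and 5 of 7 p53+/+ prefixes, at a log2 fold change of -0.68 (SE 0.33, adjusted p = 0.757 from edgeR). Between the lines it differed least of the 6, by -0.06 (SE 0.17, adjusted p = 0.933 from edgeR).

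**Figure D3:**
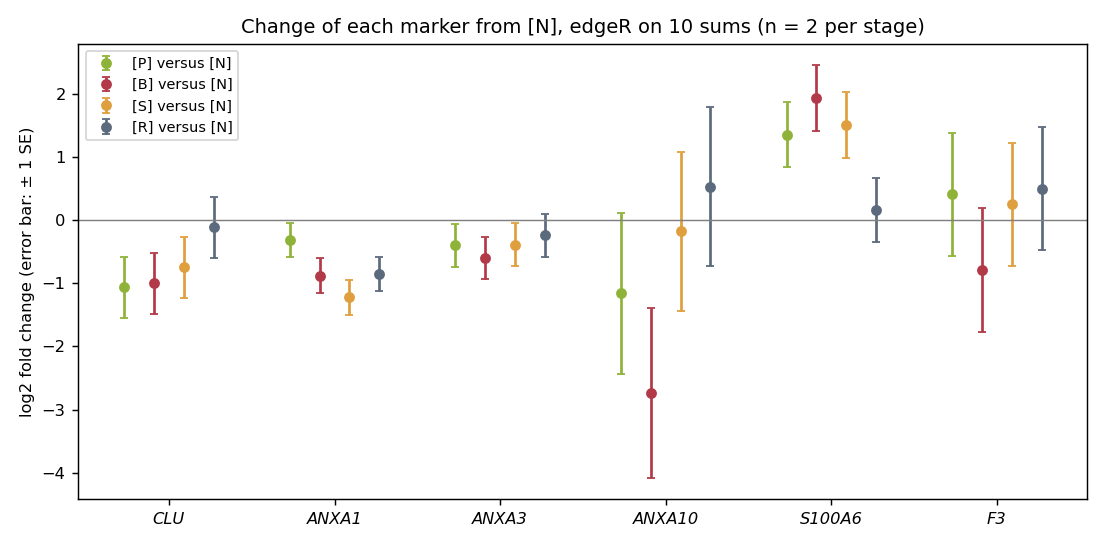
Log2 fold change of each marker from [N] in the 4 later stages, edgeR on 10 sums, with bars of 1 standard error (SE), derived from the F statistic. S100A6 is at 1.94 in [B] and 0.16 in [R], ANXA1 is below 0 in all 4 stages, and the bars of ANXA10 and F3 are the widest.

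ANXA3 was lower in [B] and [S] cells than in [N] in the medians of both lines. Annexin A3 is a phospholipid-binding protein of epithelia and of neutrophil granules. It lies on chromosome 4 at 78551770 to 78610447 (plus strand, GRCh38.p14). In p53-/- cells ANXA3 ran from 585 to 1036 CPM in [N] (median 891), from 129.6 to 920.3 in [P] (median 632), from 302 to 1056 in [B] (median 534), from 227 to 1238 in [S] (median 642) and from 488 to 999.9 in [R] (median 690.0). In p53+/+ cells it ran from 468 to 579 CPM in [N] (median 511), from 455 to 759.9 in [P] (median 647), from 29.2 to 929.9 in [B] (median 365), from 73.0 to 676 in [S] (median 338) and from 383 to 796 in [R] (median 605). Spread was wider in [B] and [S] than in [N] in both lines, and the stages overlapped. The log2 fold change was -0.40 in [P] against [N], -0.60 in [B] against [N] (SE 0.34, adjusted p = 0.388 from edgeR), -0.39 in [S] against [N] and -0.24 in [R] against [N].

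In unirradiated cells ANXA3 separated the lines, since the 7 p53-/- [N] cells ran from 585 to 1036 CPM and the 6 p53+/+ [N] cells from 468 to 579 CPM with no overlap. Of the 6778 genes at a mean of at least 20 CPM, 0.443% had all p53-/- [N] cells above all p53+/+ [N] cells. Over the 5 stages the line difference was 0.34 on the log2 scale (SE 0.19, adjusted p = 0.483 from edgeR). The ratio of medians, p53-/- over p53+/+, was 1.74 for [N], 0.976 for [P], 1.46 for [B], 1.90 for [S] and 1.14 for [R].

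ANXA10 was the sparsest marker, with a count in 71 cells. Annexin A10 is normally a protein of the stomach and is found in the serrated type of colorectal tumours. The gene lies on chromosome 4 at 168092537 to 168187736 (plus strand, GRCh38.p14). A count of 0 in the other 44 cells allows up to 3 counts, which is between 0.0366 and 0.740 CPM at the depths of those cells. ANXA10 had a count in 7 of 7 p53-/- [N] cells, in 9 of 11 [P], 3 of 8 [B], 6 of 9 [S] and 7 of 8 [R] cells of that line. Among p53+/+ cells it had a count in 5 of 6 [N], 3 of 6 [P], 16 of 28 [B], 10 of 21 [S] and 5 of 11 [R] cells. The exact (Clopper-Pearson) 95% intervals are wide, for example 8.52% to 75.5% for p53-/- [B] cells against 59.0% to 100% for p53-/- [N] cells. At a minimum of 1 CPM the p53-/- numbers were 7 of 7 [N], 9 of 11 [P], 2 of 8 [B], 5 of 9 [S] and 7 of 8 [R], and the p53+/+ numbers were 5 of 6 [N], 1 of 6 [P], 9 of 28 [B], 6 of 21 [S] and 5 of 11 [R]. After thinning to 15435056 counts per cell, which left out 12 shallower cells, the p53-/- shares were 100%, 80%, 37.5%, 75% and 87.5% from [N] to [R], and the p53+/+ shares were 66.7%, 33.3%, 54.5%, 50% and 45.5%.

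**Figure D4:**
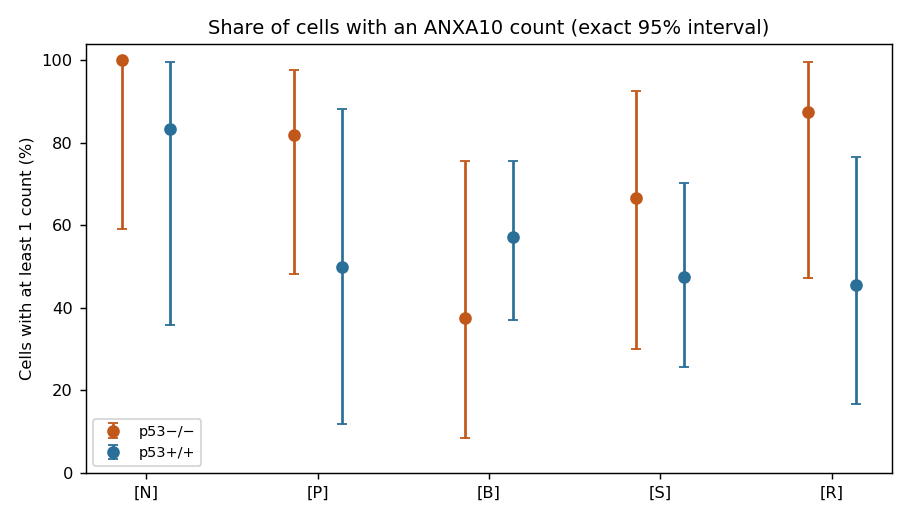
Percent of cells with at least 1 ANXA10 count by stage and line, with exact 95% intervals. The p53-/- share is 37.5% in [B] against 100% in [N], and the intervals overlap between neighbouring stages.

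By level the p53-/- line was highest in [R], with ANXA10 medians of 13.6 CPM for [N], 2.98 for [P], 0 for [B], 23.1 for [S] and 30.6 for [R]. In the p53+/+ line the medians were 14.4 CPM for [N], 0.00998 for [P], 0.171 for [B], 0 for [S] and 0 for [R]. Cells reached up to 116.2 CPM in p53-/- [R] and up to 54.4 CPM in p53+/+ [B], so single cells carried much of a sum, 46.8% and 40.3% in these groups. The log2 fold change was -2.74 in [B] against [N] (SE 1.34, adjusted p = 0.309) and 2.57 in [S] against [B] (SE 1.33, adjusted p = 1), both from edgeR. The standard errors of ANXA10 were at least 1.26 in every comparison of stages, above those of the other 5 markers. Without the filter on low counts ANXA10 passed in [B] against [N] (-2.71, adjusted p = 0.000468 from edgeR) and in [S] against [B] (2.55, adjusted p = 0.0103).

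The [N] cells behind these contrasts differed by prefix. ANXA10 was at 4.19 and 4.2001 CPM in the 2 p53-/- [N] cells of prefix 1115 and between 10.9 and 23.3 CPM in the 5 of prefix 0109. The p53+/+ [N] cell of prefix 1115 had 0, and the 5 of prefix 0109 ran from 11.7 to 35.6 CPM. Within prefix 1115, the summed counts of ANXA10 gave 7.51 CPM in p53-/- [P] against 4.19 CPM in p53-/- [N], a log2 ratio of 0.71 with 1 CPM added. In p53+/+ cells it was at 0.441 CPM in [P] against 0 counts in the single [N] cell, for which no fold is given. Over the sums of both lines the log2 fold change of [P] against [N] was negative (-1.16, SE 1.28, adjusted p = 0.770 from edgeR). The part of the prefix in the ANXA10 values was not tested.

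CLU, the marker of revival stem cells, was lower in [P], [B] and [S] sums than in [N] sums in both lines, while the lines differed in [R]. The [R] sum, in CPM scaled by TMM, was 208 against 304 for [N] in p53-/- and 357 against 307 for [N] in p53+/+. In the p53+/+ [N] sum, 1 cell held 72.8% of the counts. The medians did not follow the sums throughout. As ratios of medians to [N], p53-/- cells had 0.661 for [P], 1.06 for [B], 0.762 for [S] and 1.09 for [R]. For p53+/+ cells these ratios were 0.615, 0.572, 0.543 and 2.07, so by median [R] was above [N] in both lines. The gene lies on chromosome 8. In p53-/- cells CLU ran from 168 to 394 CPM in [N] (median 212), from 31.4 to 426 in [P] (median 139.95), from 127 to 332 in [B] (median 224), from 84.8 to 596 in [S] (median 161) and from 75.95 to 318 in [R] (median 231). In p53+/+ cells it ran from 77.8 to 584 CPM in [N] (median 149.7), from 53.8 to 170.2 in [P] (median 92.03), from 0 to 382 in [B] (median 85.6), from 22.5 to 356 in [S] (median 81.4) and from 149.8 to 665 in [R] (median 311). The p53+/+ [R] cells were the highest group by median, and all 11 stood above the [N] median, while the ranges overlapped. The single 0, in a p53+/+ [B] cell, came from the shallowest library, where 3 counts are 0.740 CPM, and the same cell had 0 counts of F3.

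The log2 fold change of CLU was -1.06 in [P] against [N] (SE 0.49, adjusted p = 0.426), -0.998 in [B] against [N] (SE 0.49, adjusted p = 0.305), -0.75 in [S] against [N] (SE 0.48, adjusted p = 0.531) and -0.11 in [R] against [N] (SE 0.48, adjusted p = 0.977), all from edgeR. A single p53+/+ [N] cell of prefix 1115 held 72.8% of the CLU counts of its sum, at 584 CPM. Without that cell, a choice made after seeing the data, the log2 fold change was -0.61 in [P] against [N], -0.54 in [B] against [N] and 0.34 in [R] against [N] (adjusted p = 0.754, 0.677 and 0.883 from edgeR). In [R] against [S] CLU was higher by 0.63 on the log2 scale (SE 0.48, adjusted p = 0.591 from edgeR).

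CLU was the higher in the p53-/- line in the median of 4 stages, with ratios of medians, p53-/- over p53+/+, of 1.41 for [N], 1.52 for [P], 2.61 for [B], 1.98 for [S] and 0.743 for [R]. All 8 p53-/- [B] cells and all 9 p53-/- [S] cells were above the p53+/+ median of their stage, with overlapping ranges. Over the stages the line difference was 0.45 on the log2 scale (SE 0.28, adjusted p = 0.552 from edgeR). Within name prefixes, [S] against [B] was -0.41 in the p53-/- line (SE 0.38) and 0.51 in the p53+/+ line (SE 0.29), and the difference between the lines was -0.91 (SE 0.48, unadjusted p = 0.0729, adjusted p = 1 from edgeR).

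**Figure D5:**
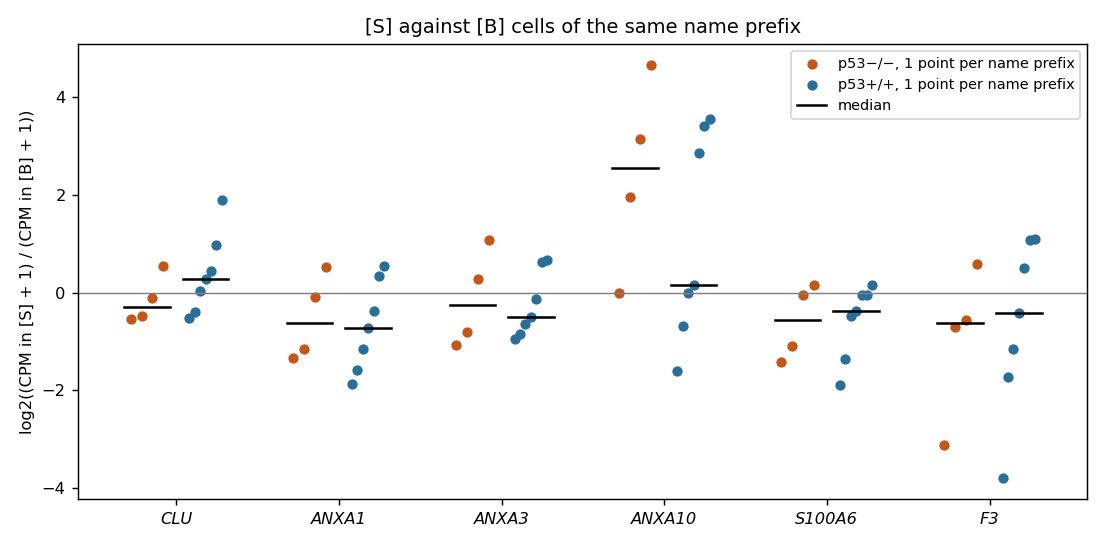
Log2 ratio of [S] to [B] CPM, with 1 CPM added to each, within name prefixes, 1 point per prefix, 4 for p53-/- and 7 for p53+/+, with the median as a bar. S100A6 is lower in [S] in 3 of 4 and 6 of 7 prefixes, and ANXA1 in 3 of 4 and 5 of 7.

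In unirradiated cells F3 differed more between the lines than the other 5 markers, by ratio of medians. The gene lies on chromosome 1 at 94529173 to 94541759 (minus strand, GRCh38.p14). In p53-/- cells F3 ran from 83.6 to 469 CPM in [N] (median 274), from 2.45 to 546 in [P] (median 75.2), from 37.0 to 229 in [B] (median 71.4), from 20.7 to 2558 in [S] (median 41.5) and from 125 to 754 in [R] (median 247). In p53+/+ cells it ran from 11.8 to 28.05 CPM in [N] (median 22.5), from 20.7 to 538 in [P] (median 242), from 0 to 367 in [B] (median 53.9), from 0.199 to 581 in [S] (median 32.8) and from 30.9 to 196 in [R] (median 107.05). All 7 p53-/- [N] cells stood above all 6 p53+/+ [N] cells, a ratio of medians of 12.2. As for ANXA3, 0.443% of the 6778 genes were separated that way.

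After irradiation the lines lay closer and the order turned in [P], with ratios of medians, p53-/- over p53+/+, of 0.311 for [P], 1.32 for [B], 1.27 for [S] and 2.31 for [R]. In p53+/+ cells, 5 of 6 [P] cells and 11 of 11 [R] cells were above the highest [N] cell, and 0.708% of the 6778 genes had all p53+/+ [R] cells above all [N] cells. In p53-/- cells, 7 of 11 [P] and 5 of 8 [B] cells were below the lowest [N] cell. The p53-/- [N] cells themselves differed by prefix, with 258 to 469 CPM in the 5 of prefix 0109 against 83.6 and 142 CPM in the 2 of prefix 1115. The part of the prefix in the F3 values was not tested. Over both lines the log2 fold changes of F3 were small beside their errors, 0.41 in [P] against [N] (SE 0.97, adjusted p = 0.907), -0.79 in [B] against [N] (SE 0.98, adjusted p = 0.734), 0.25 in [S] against [N] (SE 0.97, adjusted p = 0.936) and 0.50 in [R] against [N] (SE 0.98, adjusted p = 0.926), all from edgeR. The line difference over the stages was 1.19 (SE 0.59, adjusted p = 0.420 from edgeR).

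Whether F3 responded differently in the lines was tested, by a choice made after seeing the data, on 40 sums per stage, line and name prefix. The [P] against [N] change in p53-/- minus that in p53+/+ was -4.44 on the log2 scale (SE 1.91, unadjusted p = 0.0255, adjusted p = 0.999944 from edgeR). For [B] and [S] against [N] the differences were -3.40 (SE 1.53, adjusted p = 0.999991) and -3.07 (SE 1.51, adjusted p = 0.999991), and in [N] alone p53-/- exceeded p53+/+ by 3.73 (SE 1.43, unadjusted p = 0.0130, adjusted p = 1). The values for [P], [B] and [S] all subtract that same [N] difference, which rests on 2 prefixes per line, so they are not independent. None of these passed, and edgeR called 0 of 19696 genes in any of the 5 tests, with 88 to 733 genes at an unadjusted p under 0.05. Within prefix 1115, F3 was at 116.2 CPM in p53-/- [P] against 113.4 CPM in p53-/- [N], a log2 ratio of 0.03. In p53+/+ cells of that prefix it was at 267 CPM in [P] against 11.8 CPM in [N], a log2 ratio of 4.39 with 1 CPM added to both, with 1 cell in [N].

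F3 counts were concentrated in few cells. One p53-/- [S] cell at 2558 CPM held 46.3% of its sum, and one p53+/+ [P] cell held 64.9%. Leaving out the sums 1 at a time turned the sign of F3 in at least 1 fit for each of the 4 comparisons with [N].

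Across all cells ANXA1 and ANXA3 were the pair of markers that ran together most (Spearman's rho 0.54, and 0.54 after each stage and line was centred). CLU and S100A6 ran against each other (rho -0.54, and -0.26 after centring), and ANXA3 and S100A6 likewise (rho -0.51, and -0.23 after centring). These are descriptions over cells of 10 groups, and values of 1 cell share a library and its depth. Spearman correlations with the total count of a cell lay between -0.17 for S100A6 and 0.26 for ANXA3.

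Genes whose levels followed each marker closely over all cells were found among 6777 genes. Among those nearest to S100A6 were C19orf33 (rho 0.82) and OST4 (0.79), a small subunit of the oligosaccharyltransferase. CLU was followed by DNAJB1 (0.65), a co-chaperone of HSP70, ARL6IP1 (0.62) and OS9 (0.60), both of the endoplasmic reticulum. ANXA1 was followed by PSMD10 (0.64), PRDX3 (0.64) and VDAC3 (0.61), and ANXA3 by CCT5 (0.66), TPM3 (0.65) and GNAI3 (0.65). F3 was followed by the chloride channel gene ANO1 (0.62), SOAT1 (0.55) and TMEM209 (0.55), and no gene reached a rho of 0.5 with ANXA10.

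Relatives of the markers were looked at as families and pathways in [B] against [N], with the 6 members left out and 0.658% of all genes called. Among 11 tested S100 genes other than S100A6, 0 passed and all 11 had positive fold changes, with a median log2 fold change of 1.05 against 0.20 over all genes. The class of shortest transcripts, which holds S100A6, had a median of 0.38 here. The part of transcript length in the family's values was not tested. S100A13 was at 1.405 (adjusted p = 0.0875), S100A11, the partner of annexin A1, at 0.88 (adjusted p = 0.279) and S100A16 at 0.57 (adjusted p = 0.290), all from edgeR. Among 9 other annexins 0 passed, 4 were positive and 5 negative (median -0.08), with ANXA11 at 0.91, ANXA7 at -0.79 and ANXA5 at -0.54 (adjusted p = 0.144, 0.154 and 0.437 from edgeR).

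Of 11 other fetal-like and regenerative markers, 0 passed and 9 were positive (median 0.97), among them PLAUR, the urokinase receptor, at 1.80, MSLN at 1.74 and the growth factor AREG at 1.05 (adjusted p = 0.139, 0.217 and 0.204 from edgeR). For [R] against [N] 8 of these 11 were positive, with a median of 0.32 against 0.02 over all genes, and 0 passed. Among 20 YAP/TEAD target genes other than F3, 0 passed and 14 were positive (median 0.75), with GADD45A at 1.74, ASAP1 at 0.81 and DOCK5 at -0.89 (adjusted p = 0.134, 0.293 and 0.236 from edgeR). GADD45A is also a p53 target. For F3, 7 partners in coagulation and its control were tested and 0 passed (median -0.23), with the inhibitor gene TFPI at 1.03, the protein C receptor gene PROCR at 0.74 and F2RL1, which encodes a protease-activated receptor, at -0.52 (adjusted p = 0.504, 0.358 and 0.518 from edgeR). For CLU, which also inhibits the end of the complement cascade, 5 complement regulators were tested and 0 passed (median 0.77), with CD59, which blocks the same step, at 1.52 (adjusted p = 0.0851 from edgeR). CD55 and CD46 were at 0.77 and 0.53 (adjusted p = 0.377 and 0.560 from edgeR).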

How the data were processed

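RNA of single HCT116 cells was amplified as full-length cDNA and sequenced. By the methods of the study, the authors used fastp for trimming, HISAT2 2.0 for alignment to GRCh38 and StringTie for expression estimates. The methods also name RSEM and Bowtie2, for values scaled by transcript length and mapped reads (FPKM). The tool that made the counts is not given in the sources used here. The deposited values are raw counts per gene entry and cell, whole numbers with no normalization, and 9490 of 43386 entries hold no count in any cell. No 2 cells were copies (highest Pearson r of log2(CPM + 1) 0.959).

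CPM were computed from the counts. Counts were summed per stage and line into 10 sums and filtered with filterByExpr (minimum count 10, and at least 1 count in at least 12 cells). They were fitted with edgeR 4.0.16 (TMM, robust quasi-likelihood) in R 4.3.3. The SE given with edgeR values was derived from the test, as the absolute log2 fold change divided by the square root of the F statistic. Stages were compared without a block, and the lines with stage as a block. [S] and [B] were also compared on sums within name prefixes, with the prefix and line as a block. The spread is between sums, which may be technical. In the comparisons of stages the 2 sums of a stage are the 2 lines, so that spread also holds differences between the lines. The replicate number is the line, so the numbers pair the sums. Deviations from the stage means correlated at 0.074 to 0.216 over 10 pairs of stages. DESeq2 1.42.0, limma 3.58.1 and Python 3.11.15 (pandas 2.3.3, scipy 1.17.1, matplotlib 3.10.9, numpy 2.4.6) were also used, and the fits were tested on simulated data. Transcript lengths were found for 80.6% of tested genes. Promoter windows were read from RefSeq, and 5 of the 6 members matched. The promoter of CLU and the proteins were not used here.

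The 6 members were always named. Among list genes averaging 20 CPM or more, the 3 of lowest p for [B] versus [N] and any called there were named, then the 3 genes most like each member at a rho of at least 0.5. Some items that these rules name, the checks of the line labels among them, are not reported here. Members and lists were chosen with earlier results of these data known. Alternatives were the line block, DESeq2 on sums and on cells, no filter, scaling by library size alone, thinned or equally weighted cells, sums per name prefix, and left-out cells, sums and prefixes.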

Additional observations from a re-analysis of the deposited data

Results flagged for a closer look

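Single cells stood apart from the rest of their stage and line in 9 of 36 pairings of 6 markers with 6 groups of 4 to 10 cells (Dixon's criterion at 95%). Chance gives about 1 in 20 only for normally distributed values, which CPM of single cells were not shown to be. All 9 were the highest cell of their group, so their number cannot be set against that rate. The pairings are also not independent, since the same cells recur. The [R] cell of the p53-/- line with the highest ANXA1, 2938 CPM, was also the one with the highest S100A6, 3254 CPM. The p53-/- [S] group held a cell with 596 CPM of CLU, and another with 2558 CPM of F3. In p53+/+ [N], 1 cell had 584 CPM of CLU, and in p53-/- [N], 1 cell had 5019.9 CPM of ANXA1, and both carry name prefix 1115. ANXA3 reached 1056 CPM in 1 p53-/- [B] cell. ANXA10 reached 116.2 CPM in 1 p53-/- [R] cell and 2.33 CPM in 1 p53+/+ [P] cell.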

How the results depend on the processing

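Over 1320 other values of the markers' log2 fold changes, 1248 kept their sign and their side of the threshold, 57 changed sign and 15 passed where the reported fit did not, and of 744 that leave out 1 sum or prefix, 37 changed sign and 0 passed. The cause of these changes was not tested. The number of markers called was 0 in the reported fits. With the line as a replicate block it was 1 in [B] against [N] (S100A6), and the block changed no other call of a marker. DESeq2 on the sums called 2 in [B] against [N] and 1 in [S] against [N]. Without the filter on low counts the numbers were 2 in [B] against [N], 1 in [S] against [N] (524 genes called in all) and 1 in [S] against [B] (99), and with sums per name prefix 1 marker (S100A6, lower in p53-/-) differed between the lines (1275). DESeq2 with cells as replicates, which takes cells for separate cultures, called 1 marker in [P] against [N] (1089 genes in all), 1 in [B] against [N] (2751), 2 in [S] against [N] (2005) and 2 in [R] against [S] (3232). In [B] against [N] genes called over the whole table numbered 131 in the reported fit, 677 with the block, 2153 with DESeq2, 72 with library size as the only scaling, 1276 without the filter, 81 with thinned cells and 48 without the [N] cell richest in CLU. For the other comparisons the settings run gave 0 to 3232 genes. Library size as the only scaling moved the median of all genes in the stage comparisons by between -0.13 in [S] against [B] and 0.18 in [R] against [S], by 0.11 in [B] against [N], and within prefixes by 0.19 for [S] against [B] in p53-/- and 0.31 for the line difference.

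The log2 fold changes that changed sign were mostly near 0. In [R] against [N] they were ANXA10 at -0.32 with the block, CLU at 0.042 with library size alone, 0.044 with equally weighted cells, 0.31 with DESeq2 on cells and 0.34 without the [N] cell richest in CLU, and S100A6 at -0.042 with equally weighted cells and -0.17 without that cell. In [R] against [S] F3 was at -0.24 with thinned and -0.12 with equally weighted cells. In [B] against [P] CLU was at -0.13 with sums per prefix and -0.21 with DESeq2 on cells, and in [S] against [B] ANXA3 was at -0.10 with sums per prefix. Between the lines ANXA1 was at 0.048 with library size alone and 0.072 with sums per prefix. The line difference of [S] against [B] within prefixes was 0.18 for ANXA1 and 0.12 for ANXA3 with library size alone. Within prefix 1115, [P] against [N] was 0.047 in p53-/- and 0.10 in p53+/+ for ANXA3. For ANXA10 it was 0.71 in p53-/-. In p53+/+ the single [N] cell had 0 counts of ANXA10, so the added 1 CPM sets the positive value, which is not given.

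Leaving out 1 sum at a time gave F3 from -0.43 to 3.30 in [P], -1.61 to 2.09 in [B], -0.64 to 3.14 in [S] and -0.66 to 3.38 in [R], each against [N], and -0.92 to 1.14 in [R] against [S]. ANXA10 lay from -1.19 to 0.38 in [S] and -1.92 to 1.395 in [R] against [N], -2.53 to 2.23 in [B] against [P] and -1.74 to 1.73 in [R] against [S]. CLU lay from -0.56 to 0.22 in [R] against [N], -0.49 to 0.75 in [B] against [P], -0.27 to 0.81 in [S] against [B] and, leaving out prefixes, -0.049 to 0.24 in [S] against [B] within prefixes. ANXA3 lay from -0.44 to 0.093 in [R] against [N], -0.28 to 0.53 in [S] against [B] and -0.19 to 0.64 in [R] against [S], and within prefixes from -0.79 to 0.11 in p53-/-, -0.29 to 0.066 in p53+/+ and -0.65 to 0.25 for their difference. S100A6 lay from -0.14 to 0.62 in [R] against [N] and -1.47 to 0.15 in [S] against [B]. ANXA1 lay from -0.16 to 0.025 between the lines and -0.73 to 0.28 for the line difference within prefixes. A stage left with 1 sum was assumed to vary like the others. Of 120 shares of cells with a count, 3 left their exact 95% interval under thinning or a minimum of 1 CPM. Limits remain. With 2 sums per stage, unequal numbers of cells and prefixes that follow stages, small differences were not detectable, and large ones could be missed. In [B] against [N], log2 fold changes of 1.94 for S100A6 and -2.74 for ANXA10 did not pass in the reported fit. A marker that was not called was therefore not shown to be unchanged.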

Other observations

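Markers of the homeostatic crypt base, the counterpart of the regenerative state, were measured in the same sums. Of 11 tested in [B] versus [N], with 0.658% of all genes called, 1 passed. CDCA7, a MYC-responsive gene of proliferating cells, was lower by -2.51 on the log2 scale (standard error 0.41, adjusted p = 0.0357 from edgeR). SOX9, a transcription factor of crypt progenitors, was at 0.55 (adjusted p = 0.416 from edgeR). The list had 6 positive and 5 negative values, with a median of 0.24 against 0.20 over all genes.

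Between the lines, relatives of the markers that passed included S100A4 and ANXA4, named here after their values were seen, with 0.206% of all genes called. S100A4 was lower in p53-/- at -3.26 on the log2 scale (standard error 0.26, adjusted p = 0.00529), and ANXA4 at -1.28 (standard error 0.19, adjusted p = 0.0466), all from edgeR over 5 stages.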
